A study of Mus musculus with 15 samples.

Results

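Cultured mouse adipocytes kept at 31°C for 12 days were compared with adipocytes of the same age kept at 37°C. Of the 15 libraries of the series, 10 carried one of these labels and were compared, 5 with 12 days at 31°C (day 12) and 5 with 0 days at 31°C (day 0), and all genes in the count table were considered. The other 5 libraries, from cells that spent 1 day at 31°C (day 1), shared the fit and are given beside single genes. All cells were mesenchymal stem cells of C57BL/6J mice, which the study isolated from ears, and no genetic change or drug set the groups apart. All cultures received an adipogenic mixture of methylisobutylxanthine, dexamethasone, insulin and a thiazolidinedione, spent their first 4 days at 37°C and were harvested on day 16 of differentiation. The day 12 cultures were moved to 31°C on day 4, so their time in the cool covered differentiation from day 4 on, and the day 1 cultures were moved on day 15. Nothing in the labels ties the 5 libraries of 1 group to separate mice or cultures, so p-values measure only the spread between these libraries, which may be technical.

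Adipocytes store triglyceride in a lipid droplet, take up glucose in response to insulin, release fatty acids when adrenergic receptors raise cyclic AMP, and secrete hormones, complement factors and matrix proteins. Fat depots near the skin and in the limbs of a mammal are cooler than the body core, and membrane and storage lipids are known to be more fluid when their fatty acids are unsaturated. Most enzymes slow as temperature drops, and 2 RNA-binding proteins, Rbm3 and Cirbp, are known for their induction by mild cold.

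The adipocyte label was borne out by the marker genes: Adipoq, Fabp4, Plin1, Lpl, Cebpa, Pparg, Cidec and Lipe all had a mean of at least 59.0 CPM (read counts scaled by library size) in both groups. Stromal genes were present too, with Pdgfra at 562 CPM at day 0 and 712 at day 12, and so were the cartilage gene Col2a1, at 149 and 182 CPM, and the epidermal and stem cell gene Trp63, at 51.4 and 61.0 CPM. The brown adipocyte markers Ucp1, Cidea and Cox8b had at most 4, 9 and 8 counts in any of the 10 libraries. Of the same set, Zic1 had at most 19 counts, but Dio2 was well expressed, at 164 CPM at day 0 and 73.3 at day 12. The leukocyte marker Ptprc had at most 5, the endothelial marker Cdh5 at most 6, the keratinocyte markers Krt5 and Krt14 at most 11 and 1, the mesothelial markers Upk3b, Upk1b and Wt1 at most 6, 4 and 1, and the muscle markers Myog and Pax7 at most 8 and 7. Other members of the leukocyte and mesothelial sets were detected. At day 0 and day 12, Cd68 was at 7.50 and 5.14 CPM, Lyz2 at 0.933 and 1.96, and Krt8 at 8.44 and 5.71. These are bulk libraries, in which fewer cells of a type and less RNA per cell cannot be told apart.

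The day 0 libraries held 92387376 to 133270973 counts each and the day 12 libraries 64648178 to 91338649. The coefficient of variation between libraries of a group, from the common dispersion, was 5.45% at day 0 and 4.99% at day 12. Of 14293 genes tested, 1852 (13.0%) were higher and 2320 (16.2%) were lower at day 12, at an adjusted p under 0.05 in edgeR's quasi-likelihood test and a fold change over 1.5. A gene is said below to have risen or fallen only where it passed both limits, and the medians of log2 fold changes are to be read against 0.01 over all genes tested. Counts of list members that rose or fell are to be read against the 13.0% and 16.2% of all genes tested. The calls were spread over the range of expression but were more common among weakly expressed genes: 22.9% of genes under 1 CPM were higher and 26.4% lower, against 6.22% and 15.5% of genes at 100 CPM or more. More than 4-fold changes were seen in 225 higher and 346 lower genes, and more than 16-fold changes in 17 and 37. All 5 day 12 libraries lay above all 5 day 0 libraries for 33.0% of the genes tested and below them for 31.7%. With libraries scaled to total counts, the median of all genes stood at 0.21 and 35.9% of called genes were lower, in place of 55.6%, so for most lists the counts or the median with total counts stand beside the values.

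**Figure D1:**
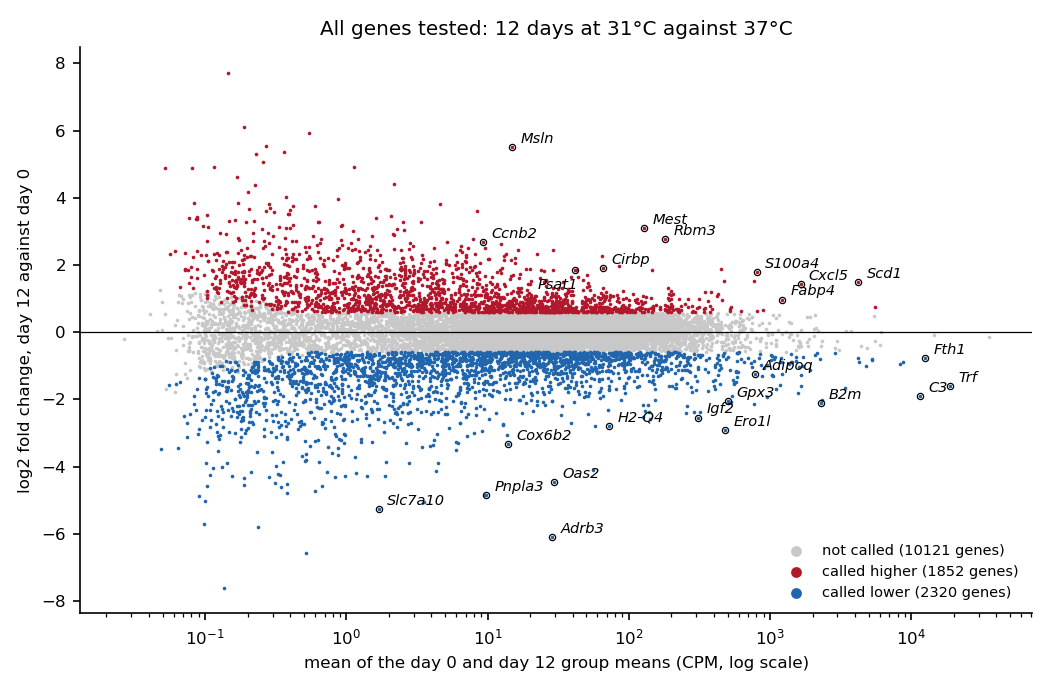
Each point is 1 of 14293 genes, with its mean level in CPM on a log axis and its log2 fold change at day 12 against day 0. The 1852 genes called higher are red, the 2320 called lower are blue, and the circled genes are named in the text; the abundant Trf, C3 and Fth1 lie below 0.

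Rbm3 and Cirbp, the cold-inducible RNA-binding proteins, were the check of the exposure. Rbm3 stood at 45.1, 46.6, 41.5, 52.4 and 47.3 CPM in the day 0 libraries and at 306, 308, 335, 304 and 318 CPM in the day 12 libraries. Cirbp stood at 29.0, 28, 27.1, 27.5 and 25.6 CPM at day 0 and at 102 to 105 CPM at day 12. Both were higher in every cool library than in any control, Rbm3 by 6.75-fold and Cirbp by 3.76-fold. They differed in their course: Rbm3 was higher at day 12 than at day 1 (log2 difference 0.80), whereas Cirbp was lower at day 12 than at day 1 (-0.67), with both differences called.

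The 20 most abundant genes of each library took 19.58% to 20.35% of the counts at day 0 and 15.53% to 16.00% at day 12, and the number of genes that together held the upper 50% of the counts rose from between 398 and 426 to between 628 and 650. Both differences reached the smallest p that an exact two-sided permutation test of 5 against 5 libraries can give (0.00794). The 10 genes that lost the most CPM, chosen on that loss, summed to between 138931 and 148441 CPM at day 0 and between 75473 and 81044 at day 12. They were Trf, C3, Fth1, Hp, Bgn, C4b, Fn1, Lcn2, Gas6 and B2m.

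Trf encodes transferrin, the iron carrier of plasma, and gave 26236 to 30421 CPM in the day 0 libraries and 9043 to 9547 CPM in the day 12 libraries, a 3.04-fold decrease. C3, the central complement component, gave 18146, 18545, 19140, 17868 and 16836 CPM at day 0 and 4764, 4954, 4852, 4848 and 4643 CPM at day 12. Its spread within a group was small beside the difference, and it fell 3.76-fold (log2 fold change -1.91 ± 0.030 SE, adjusted p 2.43e-24). Complement C4b fell from 5144 ± 263 to 1641 ± 40.6 CPM (SD, n = 5 in each group here and below), the heme scavenger haptoglobin Hp from 11028 ± 447 to 5693 ± 240, the ferritin heavy chain Fth1 from 15902 ± 623 to 9298 ± 479, and the siderophore-binding protein Lcn2 from 6344 ± 289 to 3177 ± 103. With total counts Fth1 came to -0.58, under the limit. The proteoglycan Bgn fell by 0.90 and the growth factor Gas6 by 0.84 on the log2 scale. Fibronectin, Fn1, was the most abundant of the 10 and did not pass the fold limit (36974 ± 1479 and 33805 ± 1597 CPM, log2 fold change -0.13), and its sign turned with scaling to total counts (0.06). At day 1, Trf was at 27756 CPM, Fth1 at 16257 and Hp at 13220 CPM, and each of the 3 was called lower at day 12 than at day 1. Of the exon bases of Trf, 63.5% also belong to an overlapping gene model on the same strand.

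The 10 genes that gained the most CPM, chosen on that gain, summed to between 17576 and 18844 CPM at day 0 and between 31851 and 34222 at day 12. Scd1, the stearoyl-CoA desaturase that makes monounsaturated fatty acids, gained most. It was followed by the matrix proteins Thbs1 (4133 ± 222 to 6967 ± 685 CPM) and Nid1 (4559 ± 233 to 6410 ± 179, log2 fold change 0.49, under the fold limit). The neutrophil chemokine Cxcl5 rose from 889 ± 116 to 2401 ± 90.2 CPM, the calcium-binding protein S100a4 from 361 ± 12.9 to 1257 ± 30.8, and Il1rl1, the receptor of interleukin 33, from 397 ± 24 to 1142 ± 107. Cxcl5 stood at 710 CPM at day 1, and its rise came between day 1 and day 12 (log2 difference 1.76). Timp2, Fstl1 and Steap4 were higher by 0.52, 0.44 and 0.46, under the limit, and all 3, with Nid1, passed it with scaling to total counts (0.71, 0.63, 0.65 and 0.69). S100a4 shares 51.7% of its exon bases with a gene model on its strand.

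**Figure D2:**
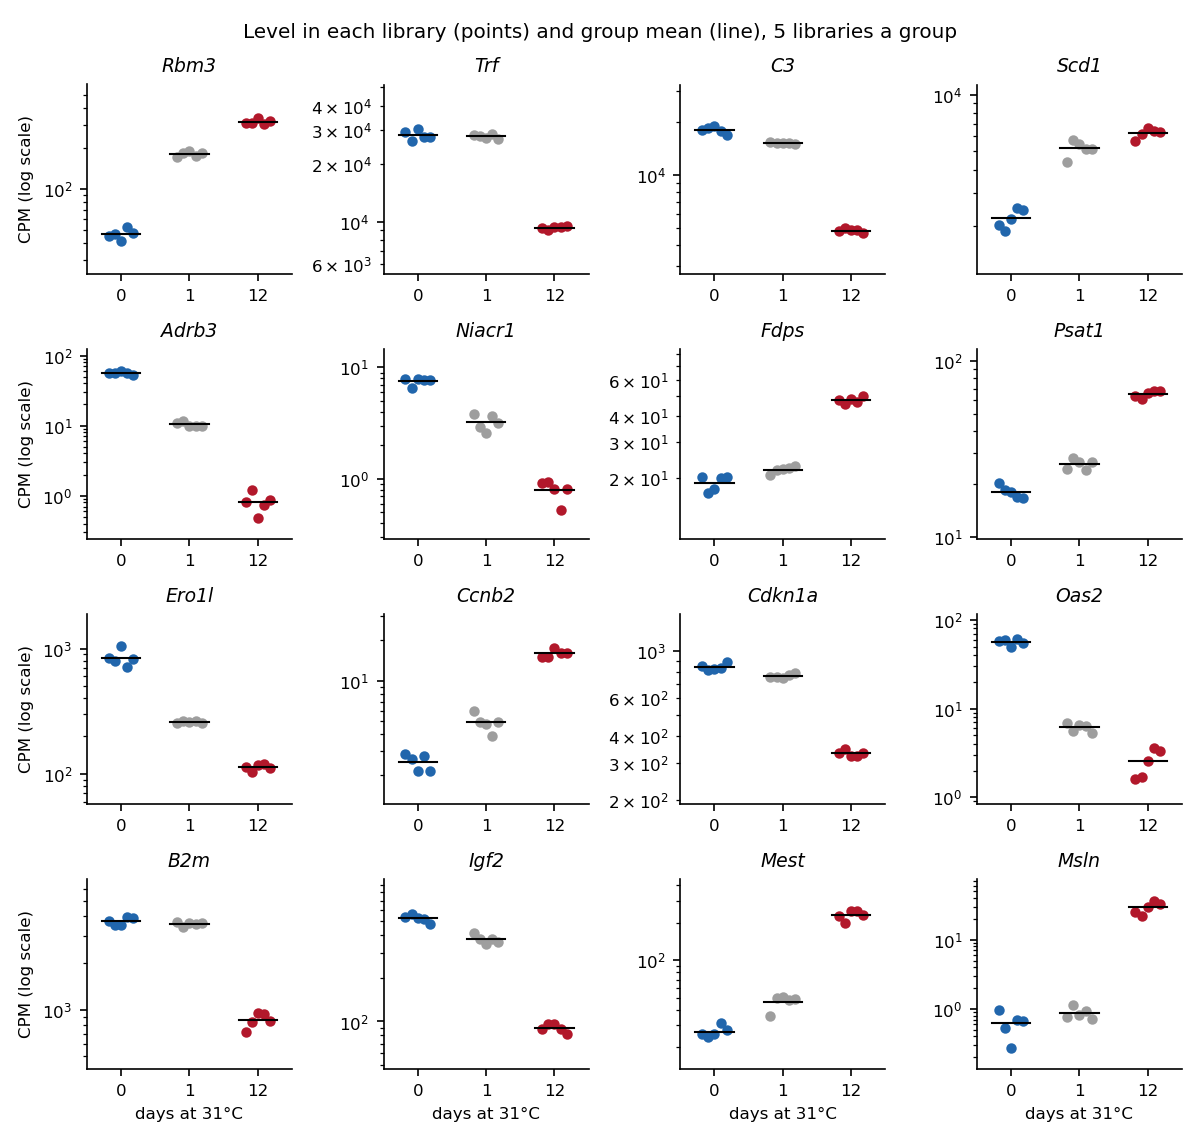
The level of 16 genes in CPM, on log axes, is shown in each of the 5 libraries (points) at 0 (blue), 1 (grey) and 12 (red) days at 31°C, with the group mean as a line. The day 0 and day 12 points did not overlap for any of the 16 genes, and for Trf and B2m the day 1 points lay with those of day 0.

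Of 32 transcription factors that set up and hold the adipocyte state, 0 rose and 5 fell, with a median of -0.14 (0.05 with scaling to total counts, where 1 rose and 1 fell). The share that fell, 15.6%, was near the 16.2% of all genes tested, and the 0% that rose was below the 13.0%. Pparg, the nuclear receptor at the head of adipogenesis, fell from 119 ± 2.23 to 78.6 ± 3.32 CPM, by 0.59 on the log2 scale. That value lies at the fold limit, and the call was lost without day 12 replicate 1 or 4 (-0.58 in each) and with total counts (-0.40). Klf15, a factor of glucose and amino acid metabolism, fell from 31.5 ± 1.02 to 15.4 ± 1.19 CPM, and the insulin-restrained factor Foxo1 (-0.73) and the oxysterol receptor Nr1h3 (-0.69) fell too, the latter 2 not past the limit with total counts (-0.53 and -0.50). Cebpa had a log2 fold change of -0.07 (158 ± 11.9 and 151 ± 7.62 CPM), with a sign that turned with total counts (0.12).

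Of 28 adipokines and other factors secreted by fat, 16 fell and 1 rose, with a median of -0.93 (15 and 2 with total counts). Adiponectin, Adipoq, stood at 1116, 1089, 1032, 1144 and 1093 CPM at day 0 and at 462, 479, 460, 453 and 467 CPM at day 12, and had not changed at day 1 beyond the fold limit (1126 ± 33.5). The groups were far apart and the decrease was 2.36-fold. The stress-induced cytokine Gdf15 fell from 8.42 ± 0.439 to 1.58 ± 0.305 CPM, chemerin (Rarres2) from 425 ± 11 to 81.0 ± 1.72, and the adiponectin relative C1qtnf3 from 2.47 ± 0.382 to 0.510 ± 0.116. Leptin was weakly expressed throughout (Lep, 2.11 ± 0.297 and 1.30 ± 0.322 CPM, -0.69, and -0.50 with total counts, under the limit). Rarres2 has 33.6% of its exon bases under a gene on the opposite strand.

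Of 22 lipid droplet proteins, 6 fell and 1 rose, with a median of -0.20 (-0.00 with total counts). Plin1, the coat of the mature droplet, was not called (0.23). Cidec, which fuses droplets, fell 3.0-fold, from 169 to 187 CPM at day 0 to 55.5 to 63.7 at day 12. It was lower still at day 1, at 26.3 to 32.3 CPM, and the difference of day 12 and day 1 was called (1.03). Pnpla3, a droplet hydrolase that responds to insulin and carbohydrate, stood at 20.7, 17.6, 19.2, 18.5 and 18.4 CPM at day 0 and at 0.471, 0.858, 0.547, 0.855 and 0.610 CPM at day 12. All 5 cool libraries were under 1 CPM, and the decrease was 28.8-fold (log2 fold change -4.85 ± 0.10 SE, adjusted p 5.05e-22). Cideb fell as well (-1.37), but 76.3% of its exon bases lie under a gene on the opposite strand.

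Scd1 stood apart from the rest of the fatty acid synthesis genes. Its level was 2038, 1885, 2191, 2503 and 2423 CPM in the day 0 libraries and 5664, 6162, 6658, 6435 and 6318 CPM in the day 12 libraries. The cool libraries lay far above the controls, a rise of 2.83-fold, and the further rise after day 1 (log2 difference 0.27) did not pass the limit. Of the 26 genes of de novo lipogenesis, desaturation and elongation tested, 2 rose and 2 fell, with a median of -0.15 (0.05 with total counts, where 4 rose and 1 fell). The enzymes upstream of Scd1 moved by less: ATP citrate lyase (Acly) was 139 ± 1.98 and 204 ± 1.92 CPM (0.55, and 0.75 with total counts, past the limit), acetyl-CoA carboxylase (Acaca) 233 ± 15.8 and 200 ± 5.18, and fatty acid synthase (Fasn) 331 ± 8.97 and 369 ± 12.7. Acss2, which activates acetate, fell from 31.2 ± 0.958 to 20.4 ± 1.08 CPM (-0.61, and -0.42 with total counts, no longer past the limit), and the elongase Elovl7 fell from 3.02 ± 0.513 to 1.17 ± 0.0981 CPM. The summed level of this list rose from between 4326 and 5076 CPM to between 8095 and 9133, and Scd1 alone gained 4039 CPM.

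Of 24 genes of triglyceride synthesis and glycerol handling, 3 rose and 5 fell (3 and 3 with total counts), or 12.5% and 20.8%, and 16 were not called. The acyltransferase Agpat2 rose from 21.4 ± 1.53 to 66.3 ± 2.89 CPM, and Dgat1, which adds the last fatty acid, rose from 51.3 ± 2.58 to 83.8 ± 2.5. Dgat2, the other enzyme of that last step, fell from 306 ± 14.5 to 185 ± 7.96 CPM (-0.73, and -0.53 with total counts, under the limit), the phosphatidate phosphatase Lpin1 from 143 ± 5.14 to 64.0 ± 3.06, and the monoacylglycerol acyltransferase Mogat1 from 3.94 ± 0.346 to 0.854 ± 0.266. The 2 Dgat genes thus moved in opposite directions. Mogat1 has 12.8% of its exon bases under a gene on the opposite strand.

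Of 22 genes of fatty acid uptake, binding and activation, 6 rose, 3 fell and 13 were not called (median 0.18, and 8 rose and 2 fell with total counts). The carrier proteins Fabp4 and Fabp5 rose from 828 ± 66.0 to 1617 ± 75.5 CPM and from 95.2 ± 5.20 to 194 ± 8.25. The acyl-CoA synthetase Acsl1 rose from 134 ± 3.71 to 265 ± 15.1 CPM and Acsl6 from 0.609 ± 0.207 to 2.28 ± 0.392, and the transporter Cd36 from 410 ± 30.5 to 636 ± 22.1. Lipoprotein lipase (Lpl, 0.11) was not called, the receptor Vldlr fell from 109 ± 9.96 to 40.2 ± 1.42 CPM, and the transport protein Slc27a3 from 33.7 ± 2.46 to 16.2 ± 0.759.

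Adrb3, the adrenergic receptor typical of adipocytes, which switches lipolysis on, stood at 57.1, 56.5, 60.0, 56.7 and 51.9 CPM at day 0 and at 0.802, 1.20, 0.486, 0.741 and 0.868 CPM at day 12. The decrease was 68.8-fold, and the day 1 libraries lay between, at 9.71 to 11.5 CPM. The inhibitory receptors for ketone bodies and niacin, Niacr1 (now Hcar2), and for lactate, Gpr81 (now Hcar1), fell as well. Niacr1 stood at 7.92, 6.59, 7.87, 7.64 and 7.74 CPM at day 0 and at 0.922, 0.933, 0.814, 0.527 and 0.806 CPM at day 12, a 9.33-fold decrease, and Gpr81 fell from 14.6 ± 0.806 to 3.18 ± 0.264 CPM. Adrb3 has 24.9% of its exon bases under a gene on the opposite strand.

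In the list of adrenergic receptors, cyclic AMP signalling and lipases, 12 of 46 genes fell and 5 rose (12 and 6 with total counts). The adenylyl cyclase Adcy7 rose from between 1.81 and 2.48 CPM to between 9.98 and 12.9, a change that came after day 1 (2.12 ± 0.372 CPM at day 1), and the cyclic AMP phosphodiesterase Pde3a rose from 2.67 ± 0.307 to 5.96 ± 0.980. Among the lipases, Pnpla2, which takes the first fatty acid off triglyceride, rose from 258 ± 5.40 to 430 ± 24.3 CPM, and Mgll, which takes off the last, from 121 ± 2.54 to 264 ± 8.06. Lipe, the hormone-sensitive lipase between them, was 173 ± 8.17 and 246 ± 11.2 CPM (0.51, and 0.70 with total counts, past the limit), with 15.6% of its exon bases under a gene on the opposite strand.

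**Figure D3:**
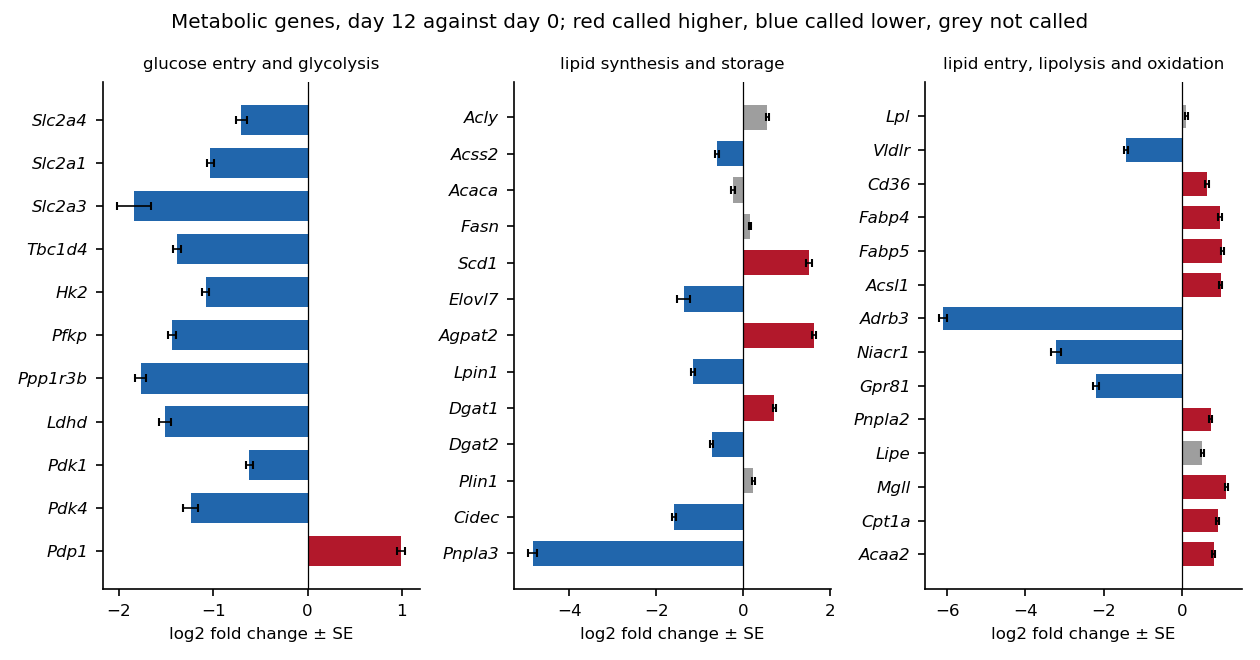
Bars give the log2 fold change at day 12 against day 0 with its standard error for 38 genes of glucose use, lipid synthesis and lipid breakdown. Adrb3 reached -6.10 and Pnpla3 -4.85, while Scd1 (1.5), Agpat2 (1.63) and Mgll (1.13) lay above 0; red genes were called higher, blue lower and grey not called.

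In cholesterol synthesis, higher genes outnumbered lower ones. Of 34 genes of synthesis and uptake, 17 rose and 3 fell, with a median of 0.54. Farnesyl diphosphate synthase (Fdps), which makes the precursor of squalene, stood at 20.3, 17, 17.6, 19.9 and 20.3 CPM at day 0 and at 48.2, 45.7, 48.5, 47.1 and 50.1 CPM at day 12. The groups were well apart, the rise was 2.52-fold, and the day 1 level was 22 ± 0.872 CPM, from which day 12 differed by 1.12 on the log2 scale. Hsd17b7, another enzyme of the pathway, rose from 9.84 ± 1.19 to 24.6 ± 1.10 CPM. The 3 members that fell act on cholesterol once made or export it: Soat1, which esterifies it, fell from 62.3 ± 3.63 to 35.6 ± 0.515 CPM, and the exporters Abcg1 and Abca1 fell from 66.8 ± 2.54 to 39.8 ± 2.41 and from 529 ± 25.8 to 331 ± 19.3. With total counts Abcg1 (-0.55) and Abca1 (-0.48) did not pass the limit. The sum over the list, in which Abca1 is abundant, was 1501 to 1622 CPM at day 0 and 1595 to 1633 at day 12. Of the exon bases of Fdps, 26.7% also belong to a gene model on the same strand.

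Of 34 genes of insulin signalling and glucose uptake, 12 fell and 1 rose, with a median of -0.45 (6 and 3 with total counts). The basal glucose transporter Slc2a1 fell from 244 ± 12.3 to 120 ± 4.18 CPM, Slc2a3 from 3.82 ± 0.510 to 1.06 ± 0.237, and the insulin-responsive Slc2a4 from 13.0 ± 0.776 to 7.98 ± 0.488. Tbc1d4, which holds Slc2a4 vesicles inside the cell until insulin acts, fell from 27.3 ± 0.715 to 10.4 ± 0.678 CPM, and Irs3 from 1.86 ± 0.225 to 0.583 ± 0.0657. The 1 member that rose was the kinase Akt1, from 174 ± 3.76 to 272 ± 5.81 CPM. The call of Slc2a4 was lost with total counts (-0.51).

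Glycolysis, lactate and glycogen genes fell in 22 of 41 cases and rose in 0, with a median of -0.66, and 16 fell with total counts. Hexokinase 2 (Hk2) fell from 68.7 ± 4.97 to 32.4 ± 0.832 CPM. The phosphofructokinase Pfkp stood at 210, 196, 230, 185 and 193 CPM at day 0 and at 71.4, 74.2, 77.2, 74.7 and 76.7 CPM at day 12, a 2.71-fold decrease, with the day 1 libraries between the groups at 111 to 120 CPM. Ppp1r3b, which directs the phosphatase that turns glycogen synthesis on, fell from 37.9 ± 3.47 to 11.1 ± 0.884 CPM. Ldhd, the D-lactate dehydrogenase, fell by 1.51, with 42.2% of its exon bases under a gene on the opposite strand. In the pentose phosphate pathway and NADPH list, 3 of 16 genes fell and 0 rose (3 and 2 with total counts): Prps1 (98.8 ± 5.05 to 44.9 ± 2.00 CPM), Rpia and Prps2, which lead to nucleotides.

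Of 44 genes of pyruvate entry and the TCA cycle, 2 rose and 3 fell, with a median of 0.20, both shares being below those over all genes. With total counts 10 rose and 2 fell, and the share that rose was then slightly above that over all genes (2982 of 14293). The largest decrease was that of the glutaminase Gls2, from 1.84 ± 0.467 to 0.595 ± 0.157 CPM. The pyruvate dehydrogenase kinases Pdk4 and Pdk1, which inhibit the enzyme, fell from 40.7 ± 4.48 to 17.2 ± 0.471 CPM and from 140 ± 5.66 to 91.0 ± 6.15, and the phosphatase Pdp1, which reactivates it, rose from 41.6 ± 3.80 to 82.5 ± 1.44. Pdk1 did not pass the limit with total counts (-0.43). The malic enzyme Me2 rose from 13.6 ± 1.01 to 26.3 ± 1.41 CPM.

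Of 45 genes known as targets of the hypoxia-inducible factors, glycolysis genes left out, 33 fell and 1 rose, and the median was -0.99 (28 fell with total counts). The protein disulfide oxidase Ero1l (now Ero1a) stood at 847, 803, 1046, 709 and 828 CPM at day 0, at 253 to 264 CPM at day 1 and at 113, 103, 118, 119 and 112 CPM at day 12. It was the member with the largest decrease, 7.49-fold (log2 fold change -2.91 ± 0.067 SE, adjusted p 2.01e-21), and the 5 cool libraries were closer together than the 5 controls. Egln3, a prolyl hydroxylase that marks the factors for breakdown, fell from between 433 and 590 CPM to between 86.5 and 102. The angiogenic factor Vegfa fell from 292 ± 22.3 to 95.5 ± 5.70 CPM, Stc2 from 32.5 ± 2.27 to 8.89 ± 0.350, and the collagen prolyl hydroxylase P4ha2 from 435 ± 18 to 126 ± 1.55. The 1 member that rose was the carbonic anhydrase Car12, from 1.93 ± 0.286 to 6.00 ± 0.718 CPM.

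The core of the hypoxia response element, ACGTG on either strand, was looked for in the 250 bases before the RefSeq start sites. It was present in 17 of the 23 fallen members that had a promoter sequence (73.9%), in 3 of the other 8 members (37.5%), and in 24.4% of the promoters of 11235 tested genes. For the glycolysis list the shares were 11 of 21 fallen members (52.4%) and 9 of 16 others (56.2%). The promoters of Egln3 (chr12:54203875-54204124, minus strand) and P4ha2 (chr11:54100674-54100923, plus strand, RefSeq on GRCm38.p6) are shown because they had the largest decreases among members with a mean of at least 1 CPM, a single RefSeq start, the motif, and no annotated exon in the window; P4ha2 was chosen for this after its values were seen. Both run 5′ to 3′ toward the start, with the motif in capitals, 229 bases before the start of Egln3 and 78 before that of P4ha2.
Egln3: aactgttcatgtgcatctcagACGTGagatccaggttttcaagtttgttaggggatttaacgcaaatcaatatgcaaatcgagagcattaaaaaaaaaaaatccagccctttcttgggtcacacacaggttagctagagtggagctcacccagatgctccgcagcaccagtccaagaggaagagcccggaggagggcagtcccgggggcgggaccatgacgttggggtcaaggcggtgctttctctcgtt
P4ha2: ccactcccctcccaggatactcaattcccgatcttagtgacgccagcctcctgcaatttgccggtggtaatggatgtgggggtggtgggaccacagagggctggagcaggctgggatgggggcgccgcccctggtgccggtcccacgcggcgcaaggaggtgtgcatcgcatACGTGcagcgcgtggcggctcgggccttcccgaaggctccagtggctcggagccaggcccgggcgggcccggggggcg

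Of 44 nuclear genes of respiratory complex I, 5 rose and 0 fell (11.4% higher, median 0.16), and of 55 genes of complexes II to V, 4 rose and 5 fell (7.27% higher, median 0.17). Both shares of higher genes are below the 13.0% of all genes. With total counts 13 and 15 rose, where 2982 of the 14293 genes tested did, and both shares then lay above that of all genes. Ndufa4 was counted with complex I, though its product is a subunit of complex IV. Its level rose from 64.2 ± 5.19 to 104 ± 4.35 CPM, that of the ATP synthase subunit Atp5l from 105 ± 5.57 to 170 ± 3.44, and that of the assembly factor Ndufaf4 from 6.35 ± 0.546 to 10.4 ± 0.433. Ndufb9 and Cox5a rose by 0.66 and 0.67, with 19.5% and 12.8% of their exon bases shared with another gene. Cox6b2, the cytochrome oxidase form typical of testis, stood at 25.2, 26.4, 25.1, 25.2 and 25.6 CPM at day 0 and at 2.84, 2.79, 2.13, 2.37 and 2.58 CPM at day 12, a decrease of 10.00-fold with tight groups, and Cox4i2, the lung form, fell from 7.88 ± 0.322 to 2.98 ± 0.351 CPM. Cox7a1, the muscle and brown fat form, fell from 1.5 ± 0.392 to 0.731 ± 0.161 CPM.

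The carrier that exchanges ADP and ATP across the inner membrane, Slc25a5, rose from between 119 and 130 CPM to between 258 and 282, a 2.16-fold rise with no overlap, and the import pore subunit Timm23 rose from 56.5 ± 3.52 to 88.1 ± 1.03 CPM. The coactivator Ppargc1a, known for driving mitochondrial biogenesis, fell from 3.31 ± 0.275 to 1.17 ± 0.412 CPM, and was the 1 gene that fell of 35 in the biogenesis list, where 2 rose (6 with total counts). In mitochondrial fatty acid oxidation, 6 of 35 genes rose and 4 fell, with a median of 0.04 (7, 3 and 0.24 with total counts). These were 17.1% and 11.4%, against 13.0% and 16.2% of all genes tested. Cpt1a, the gate of fatty acids into mitochondria, rose from 91.0 ± 4.76 to 171 ± 4.79 CPM, and the thiolase Acaa2 from 27.1 ± 1.30 to 47.6 ± 2.58. Oxct1, which uses ketones, fell from 212 ± 7.96 to 114 ± 7.74 CPM (12.6% of its exon bases lie under a gene on the opposite strand), and the brain form Cpt1c from 75.9 ± 2.62 to 45.4 ± 1.96, a call lost with total counts (-0.55). In the peroxisome list, 3 of 43 genes rose and 4 fell, with a median of -0.07 (6, 3 and 0.12 with total counts). The fatty acid importer Abcd2 fell from 48.1 ± 2.2 to 17 ± 0.532 CPM and the import factor Pex6 from 67.7 ± 2.29 to 24.1 ± 0.944, while Acox2 and Pex16 rose by 1.01 and 0.79.

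Of 26 brown and beige adipocyte genes with enough counts, 11 fell and 3 rose (10 and 6 with total counts), with 5 higher without day 0 replicate 2, and the median was -0.26. Tnfrsf9, used as a beige marker, fell from 147 ± 17.3 to 42.1 ± 3.95 CPM, and its ligand Tnfsf9 by 1.30 (14.9% of exon bases under a gene on the opposite strand). The brown fat factor Lhx8 rose from 1.68 ± 0.354 to 3.76 ± 0.183 CPM. Ucp1, the uncoupling protein of brown fat, was at 0 in 4 of the 5 day 0 libraries and in 2 of the 5 day 12 libraries and nowhere above 0.0414 CPM in these 10, so no change could be measured at this depth.

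In the list of serine, glycine and folate metabolism, 6 of 31 genes rose and 8 fell (10 and 6 with total counts). Psat1, an aminotransferase of serine synthesis, stood at 20.4, 18.6, 18.1, 16.9 and 16.7 CPM at day 0 and at 63.2, 61.0, 66.1, 68.0 and 68.1 CPM at day 12, a 3.59-fold rise. Phgdh, the step before it, rose from 18.4 ± 1.31 to 66.0 ± 1.71 CPM. Both rose mostly after day 1, where they stood at 26.0 ± 1.75 and 29.1 ± 1.29 CPM. Tyms, the thymidylate synthase, rose as well (8.37 ± 0.868 to 16.9 ± 1.02 CPM). The 2 enzymes that take homocysteine to cysteine fell, Cbs from 2.35 ± 0.458 to 0.644 ± 0.0745 CPM and Cth from 7.35 ± 0.587 to 2.73 ± 0.437.

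In the breakdown of branched-chain amino acids, 9 of 27 genes fell and 2 rose (1 without day 0 replicate 1 or 4), with a median of -0.29, and 6 fell and 3 rose with total counts. The aminotransferase Abat fell from 5.71 ± 1.07 to 1.09 ± 0.274 CPM, the propionyl-CoA carboxylase subunit Pcca from 43.6 ± 1.83 to 16.9 ± 0.367, and Ppm1k, the phosphatase that activates the branched-chain dehydrogenase, from 8.15 ± 0.658 to 3.71 ± 0.298. Hsd17b10 rose from 45.8 ± 2.16 to 76.2 ± 1.84 CPM. Amino acid transporters split evenly, with 8 of 37 higher and 8 lower (9 and 7 with total counts). Slc7a10, a carrier of small neutral amino acids used as an adipocyte surface marker, stood at 3.0, 3.15, 3.50, 3.51 and 3.33 CPM at day 0 and at 0.140, 0.0252, 0.0850, 0.0998 and 0.0620 CPM at day 12. Its decrease (log2 fold change -5.27 ± 0.22 SE, adjusted p 1.07e-16) was the next largest after Adrb3 among the genes ranked by the naming rule, and 17.9% of its exon bases lie under a gene on the opposite strand. The glutamine carrier Slc1a5 fell from 336 ± 13.8 to 169 ± 4.35 CPM and the glutamate carrier Slc1a3 from 90.1 ± 1.80 to 33.3 ± 1.14. The taurine carrier Slc6a6 rose from 307 ± 11.4 to 600 ± 17.6 CPM, Slc7a6 from 43.8 ± 1.81 to 93.4 ± 1.71, and the leucine exchanger Slc7a5 from 14.6 ± 1.14 to 28.1 ± 1.95.

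Glutathione and antioxidant enzymes fell in 13 and rose in 4 of 55 cases, with a median of -0.03 (10, 8 and 0.17 with total counts). The secreted peroxidase Gpx3 fell from 808 ± 27.7 to 193 ± 7.18 CPM, the transferase Gstt1 from between 85.2 and 87.1 CPM to between 13.4 and 17.6, and the extracellular glutathione-cleaving enzyme Ggt5 from 39.7 ± 1.26 to 9.34 ± 0.629. Gsto1 rose from 66.2 ± 3.77 to 147 ± 3.56 CPM, Gsta3 from 1.62 ± 0.375 to 4.07 ± 0.530, and the cystine importer Slc7a11 from 14.1 ± 2.34 to 24 ± 0.940.

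Of 71 genes of mitosis and cytokinesis, 63 rose and 1 fell, with a median of 1.67, and of 64 DNA replication genes 34 rose and 1 fell, with a median of 0.68. The summed level of the mitosis list was 462 to 514 CPM at day 0, 512 to 574 at day 1 and 1013 to 1155 at day 12. Cyclin B2 (Ccnb2) stood at 2.85, 2.64, 2.15, 2.74 and 2.15 CPM at day 0 and at 15.1, 15.0, 17.5, 16.1 and 16.1 CPM at day 12, a 6.35-fold rise. Mki67, the proliferation antigen, rose 3.59-fold, from 12.6 ± 1.85 to 45.3 ± 3.69 CPM. Neither gene had values that overlapped between the groups. The survivin gene Birc5 rose from 1.86 ± 0.366 to 11 ± 0.843 CPM, thymidine kinase Tk1 from 2.05 ± 0.520 to 13.8 ± 1.05, and the polymerase Pole from 2.61 ± 0.494 to 11.3 ± 0.480. The repressor E2f8 rose from 0.658 ± 0.168 to 3.66 ± 0.271 CPM, with 11.2% of its exon bases under a gene on the opposite strand. The exceptions were the activator E2f1, which fell from 35.8 ± 1.45 to 15.9 ± 0.872 CPM, and the securin Pttg1, from 50.4 ± 1.38 to 29.6 ± 0.451 (-0.77, and -0.58 with total counts, under the limit).

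In the list of cyclins, kinases and inhibitors, 5 of 39 rose and 11 fell, with a median of -0.18 (0.01 with total counts, where 4 fell). The inhibitor Cdkn1a, a p53 target that halts the cycle, stood at 850, 814, 825, 836 and 885 CPM at day 0 and at 333, 348, 323, 322 and 333 CPM at day 12, a 2.54-fold decrease with tight groups. At day 1 it was still at 765 ± 18.2 CPM. Ccng1, another p53 target, fell from 790 ± 23.4 to 295 ± 7.25 CPM and the stress gene Gadd45g from 82.2 ± 3.62 to 31.4 ± 1.78. Cyclin D1 (Ccnd1) rose from 263 ± 10.0 to 421 ± 13.9 CPM, with 23.4% of its exon bases under a gene on the opposite strand, cyclin E1 (Ccne1) from 7.29 ± 0.409 to 11.8 ± 0.814, the kinase Plk2 from 89.8 ± 4.93 to 152 ± 6.50, and Myc from 22 ± 0.657 to 42.2 ± 1.32. Ribosome biogenesis factors rose in 22 of 54 cases and fell in 0, with a median of 0.55 (34 rose with total counts). The helicase Ddx21 rose from 47.1 ± 1.54 to 101 ± 2.62 CPM and the pseudouridylation factor Nhp2 from 10.1 ± 1.00 to 22.6 ± 0.433. Tbl3 rose by 1.09, with 37.3% of its exon bases under a gene on the opposite strand.

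Promoters of cell cycle genes are known for CCAAT boxes and for the cell cycle homology region (CHR), whose core is TTTGAA, and both were looked for on either strand. Of the 52 risen mitosis genes with a promoter sequence, 33 (63.5%) held CCAAT and 21 (40.4%) held TTTGAA, against 40.6% and 13.0% of the promoters of all 11235 tested genes. Among the 7 other members the counts were 6 and 2. In the replication list, 4 of 30 risen members held an E2F motif (TTTCCCGC or TTTGGCGC on either strand), against 2.76% of all promoters, and so did 5 of the 24 others. The promoters of Ccnb2 (chr9:70421555-70421804, minus strand) and of the spindle motor gene Kif11 (chr19:37376132-37376381, plus strand, GRCm38.p6) are shown, chosen as those above by the size of the rise and with Kif11 named after its values were seen. Kif11 rose from 3.46 ± 0.429 to 14.3 ± 1.26 CPM. Capitals mark CHR cores 167 bases before the start of Ccnb2 and 19 before that of Kif11, and CCAAT boxes 87, 54 and 21 bases before the start of Ccnb2 and 45 before that of Kif11, where both motifs read on the other strand (ATTGG and TTCAAA).
Ccnb2: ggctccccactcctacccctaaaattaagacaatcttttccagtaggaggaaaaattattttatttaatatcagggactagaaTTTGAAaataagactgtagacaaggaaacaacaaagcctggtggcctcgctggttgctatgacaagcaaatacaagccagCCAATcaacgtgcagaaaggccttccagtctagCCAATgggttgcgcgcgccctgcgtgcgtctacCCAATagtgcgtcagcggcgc
Kif11: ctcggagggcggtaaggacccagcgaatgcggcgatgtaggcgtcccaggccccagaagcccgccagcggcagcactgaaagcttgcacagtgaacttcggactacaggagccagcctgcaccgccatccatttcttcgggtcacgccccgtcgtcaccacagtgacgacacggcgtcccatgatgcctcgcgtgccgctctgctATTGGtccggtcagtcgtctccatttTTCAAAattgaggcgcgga

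Interferon-stimulated genes fell in 57 of 76 cases and rose in 0, with a median of -0.95. Oas2, a sensor of double-stranded RNA, stood at 57.8, 59.3, 49.5, 60.1 and 54.2 CPM at day 0, at 5.38 to 6.93 CPM at day 1 and at 1.61, 1.70, 2.57, 3.58 and 3.33 CPM at day 12. It fell 22.1-fold (log2 fold change -4.47 ± 0.13 SE, adjusted p 1.38e-19). Gbp4, a guanylate-binding protein, fell from 7.45 ± 0.723 to 0.729 ± 0.206 CPM, and Oasl1 from 11 ± 1.67 to 1.72 ± 0.505. The summed level of the list was 5915 to 6773 CPM at day 0, 4700 to 4892 at day 1 and 3431 to 4012 at day 12.

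The core of the interferon-stimulated response element, GAAA followed after any 2 bases by another GAAA, on either strand, was present in 18 of the 41 fallen members with a promoter sequence (43.9%), in 4 of 17 other members (23.5%), and in 3.09% of all promoters. The promoters of Tgtp2 (chr11:49064213-49064462, minus strand) and Oas1g (chr5:120887614-120887863, minus strand, GRCm38.p6) are shown, chosen by the same rule and named after their values were seen. Tgtp2 was 2.52 ± 0.767 and 0.611 ± 0.173 CPM and Oas1g 4.51 ± 0.885 and 1.33 ± 0.558 at days 0 and 12, and both have near-identical relatives, so their levels are uncertain. The motif in capitals starts 70 bases before the start of Tgtp2, and 2 overlapping copies start 18 and 12 bases before that of Oas1g.
Tgtp2: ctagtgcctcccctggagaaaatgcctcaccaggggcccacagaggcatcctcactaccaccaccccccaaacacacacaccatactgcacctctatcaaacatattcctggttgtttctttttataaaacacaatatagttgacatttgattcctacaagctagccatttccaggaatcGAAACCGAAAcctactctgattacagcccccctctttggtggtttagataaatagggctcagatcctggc
Oas1g: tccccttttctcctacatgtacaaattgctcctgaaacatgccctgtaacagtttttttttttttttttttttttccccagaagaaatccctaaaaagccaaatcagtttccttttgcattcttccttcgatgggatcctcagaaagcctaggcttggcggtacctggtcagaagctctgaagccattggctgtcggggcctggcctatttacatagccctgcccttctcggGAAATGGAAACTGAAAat

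Antigen presentation had a median of -1.39, with 20 of 28 genes lower and 0 higher (1 higher without day 0 replicate 2). B2m, the light chain shared by MHC class I molecules, stood at 3708, 3511, 3520, 3968 and 3887 CPM at day 0, at 3419 to 3659 CPM at day 1 and at 720, 827, 944, 942 and 841 CPM at day 12. The day 1 libraries overlapped the day 0 libraries, and the decrease at day 12 was 4.35-fold. The class I heavy chain H2-Q4 fell from between 122 and 134 CPM to between 16.1 and 22.2, after a level of 199 to 215 CPM at day 1. H2-Q6 fell from 6.91 ± 0.866 to 0.208 ± 0.101 CPM and H2-Q8 from 8.10 ± 0.536 to 0.475 ± 0.195. The H2-Q genes are similar in sequence, so the split of reads among them is uncertain, and 19.1% of the exon bases of H2-Q4 lie under a gene on the opposite strand. The immunoproteasome subunits fell too: Psmb9 from 36.6 ± 1.71 to 8.13 ± 0.610 CPM, and Psmb8 by 1.62 (14.7% of exon bases shared). These 2 were the members of the proteasome list that fell, whereas 6 of its 39 genes rose, with a median of 0.36 (17 rose with total counts), among them Psmd13 (0.73, 10.1% of exon bases shared).

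Chemokines and interleukins fell in 18 and rose in 6 of 38 cases (17 and 9 with total counts). The membrane chemokine Cx3cl1 fell from 851 ± 35.2 to 200 ± 6.83 CPM, the interferon-induced Cxcl10 from 100 ± 16.4 to 25.9 ± 2.40, and Cxcl3 from 4.58 ± 0.635 to 0.863 ± 0.338. Against that direction, Cxcl5 rose as given above, interleukin 6 (Il6) rose from 31.3 ± 5.64 to 74.6 ± 4.50 CPM, and Ccl25 from 1.52 ± 0.257 to 2.70 ± 0.351. Complement and acute-phase genes fell in 21 and rose in 6 of 39 cases, and their summed level went from between 56415 and 58821 CPM to between 26538 and 26820. The C1 inhibitor Serping1 fell from 852 ± 31.6 to 226 ± 6.25 CPM, the complement regulator Cd55 from 32.7 ± 1.11 to 8.14 ± 0.779, and serum amyloid Saa1 from 2.10 ± 0.383 to 0.457 ± 0.157. Hemopexin (Hpx), the heme carrier of plasma, rose from between 57.6 and 70.5 CPM to between 205 and 246, and the protease inhibitors Serpina3f and Serpina3h rose from 7.05 ± 0.365 to 22.3 ± 1.56 and from 1.53 ± 0.273 to 4.34 ± 0.452. Serpina3f and Serpina3h belong to a cluster of similar genes, so their levels are uncertain.

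**Figure D4:**
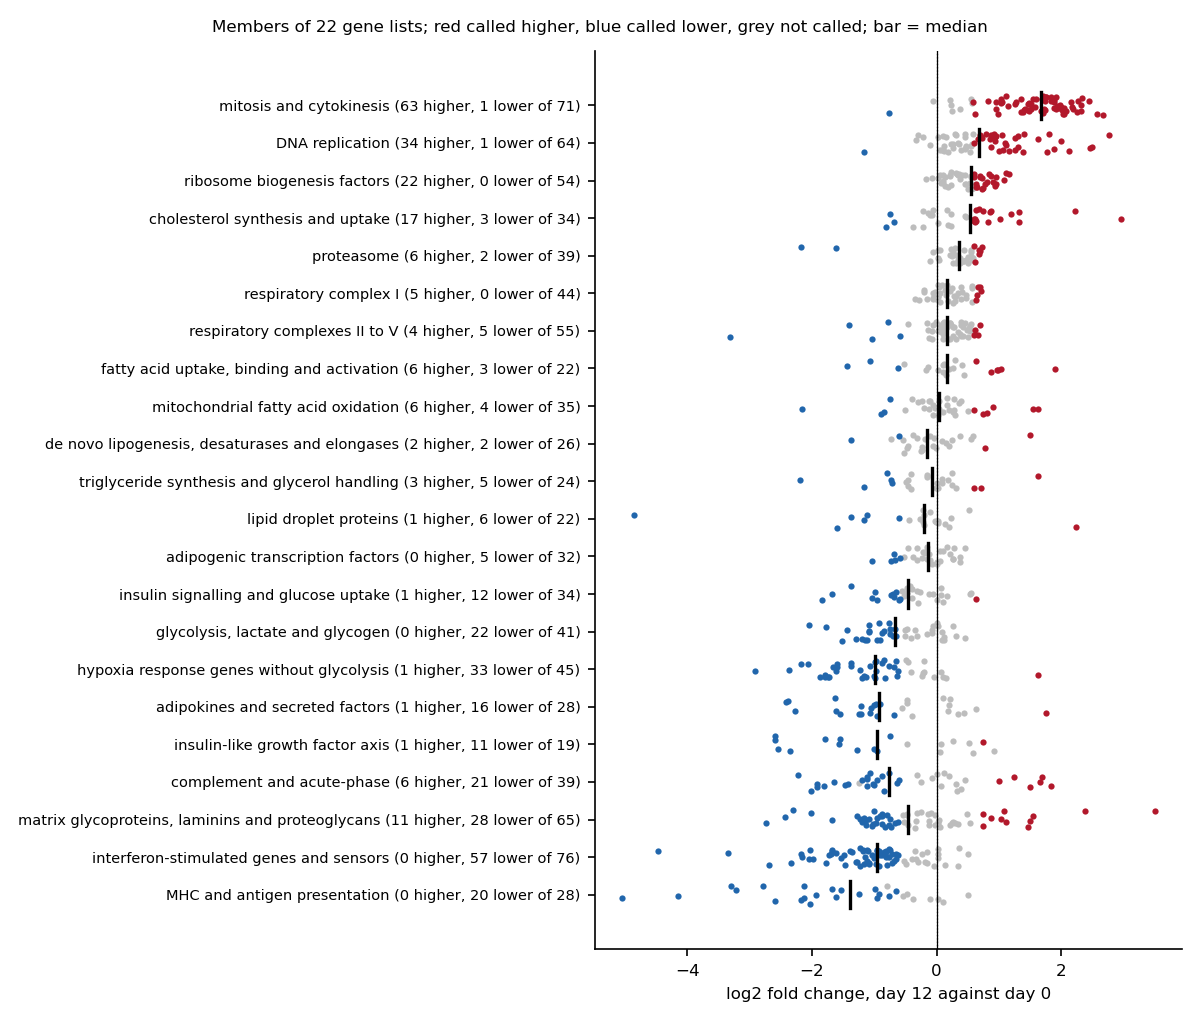
Each row is 1 of 22 gene lists, each point the log2 fold change of 1 member at day 12 against day 0, and each black bar the list's median; the dotted line is the median of all genes tested. Red points were called higher, blue lower and grey not called, with the counts beside each name; mitosis lies furthest to the right (median 1.67) and antigen presentation furthest to the left (-1.39).

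Of 37 collagen genes, 13 fell and 3 rose (5 without day 0 replicate 1), and 9 fell and 5 rose with total counts. Col3a1 fell from 6727 ± 185 to 3900 ± 146 CPM, and Col1a1 was 2649 ± 175 and 1975 ± 140 CPM (-0.42, under the limit). Larger decreases were in minor collagens, Col20a1 from 3.59 ± 0.170 to 0.187 ± 0.0773 CPM, Col14a1 from 4.93 ± 0.856 to 0.764 ± 0.140 and Col8a2 from 79.2 ± 4.57 to 21.1 ± 2.21. Col28a1, which is typical of nerve, rose from 4.66 ± 1.02 to 12.6 ± 1.00 CPM, and Col9a1, of cartilage, from 11.9 ± 1.21 to 24.5 ± 3.04. In matrix glycoproteins, laminins and proteoglycans, 28 of 65 fell and 11 rose. The laminin chain Lamb3 fell from 22.2 ± 3.56 to 3.36 ± 0.195 CPM, Fbln1 from 119 ± 5.73 to 24 ± 1.35, and Vwa1 by 2.43 (25.2% of exon bases under a gene on the opposite strand). The laminin chain Lamc3 rose from 0.440 ± 0.104 to 2.29 ± 0.347 CPM, Mfap5 from 2.48 ± 0.347 to 7.31 ± 0.735 and Thbs3 from 17.8 ± 1.01 to 50.4 ± 1.86. Among matrix proteases, inhibitors and crosslinkers, 28 of 63 fell and 7 rose. The serine protease Htra1 fell from between 220 and 256 CPM to between 38.6 and 43.0, Adamtsl1 from 11.1 ± 0.664 to 1.70 ± 0.376 and Mmp15 from 7.49 ± 0.458 to 1.81 ± 0.186. The urokinase receptor Plaur rose from 10.7 ± 0.788 to 29.2 ± 2.01 CPM, Adamts7 from 8.31 ± 0.632 to 25.3 ± 2.14 and Mmp16 from 5.60 ± 0.371 to 12.0 ± 1.21.

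Growth factor genes of the insulin-like axis fell in 11 of 19 cases and rose in 1 (10 and 4 with total counts). Igf1 fell from 223 ± 10.5 to 76.2 ± 3.71 CPM. Igf2 stood at 536, 560, 529, 522 and 481 CPM at day 0 and at 88.1, 96.1, 96.4, 88.7 and 81.9 CPM at day 12, a 5.83-fold decrease, and its imprinted neighbour on chromosome 7, the long RNA H19, at 18.4, 20.3, 21.9, 12.9 and 14.6 CPM and at 2.75, 3.13, 3.38, 2.59 and 2.80 CPM. Both genes were lower in each cool library than in any control. Igf2 shares 62.8% of its exon bases with an RNA gene annotated on its strand. The binding protein Igfbp5 was the 1 member that rose, from 70.4 ± 11.6 to 117 ± 16.2 CPM, with 2 higher without day 0 replicate 1, 3 or 4 or day 12 replicate 1 and 3 higher without day 12 replicate 5. Mest, an imprinted gene on chromosome 6 known for its link to fat cell size, moved the other way. It stood at 25.5, 24, 25.4, 31.1 and 27.7 CPM at day 0, at 35.6 to 50.7 CPM at day 1 and at 225, 199, 249, 247 and 231 CPM at day 12, an 8.61-fold rise, with 23.1% of its exon bases under a gene on the opposite strand.

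In Wnt, BMP and TGF-beta signalling, 8 of 57 genes rose and 17 fell, with a median of -0.15 (12, 16 and 0.04 with total counts). These were 14.0% and 29.8%, against 13.0% and 16.2% of all genes tested. The Wnt antagonist Sfrp4 fell from 10.8 ± 0.645 to 1.10 ± 0.305 CPM, the ligand Wnt16 from 16.2 ± 1.14 to 2.10 ± 0.230, and the growth factor Gdf5 by 1.91 (40.3% of exon bases under a gene on the opposite strand). Gdf6, a close relative of Gdf5, rose from 1.64 ± 0.110 to 5.82 ± 1.57 CPM, the antagonist Dkk2 from 3.21 ± 0.373 to 9.72 ± 1.25, and the Wnt inhibitor Nkd2 from 6.40 ± 0.536 to 14.7 ± 2.14. Progenitor markers fell in 13 and rose in 4 of 31 cases (10 and 8 with total counts), with Ly6a falling from 591 ± 30.4 to 221 ± 12.1 CPM. Contractile and SRF or YAP target genes mostly did not pass the limit (3 of 48 higher and 4 lower, 10 and 4 with total counts), with zyxin (Zyx) rising from 125 ± 6.49 to 251 ± 14.9 CPM and calponin (Cnn1) falling from 10.5 ± 0.991 to 2.52 ± 0.569.

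In the list of ATF4 and unfolded protein response genes, 19 of 45 fell and 3 rose, with a median of -0.34 (12 and 7 with total counts). Ddit4, an inhibitor of mTOR signalling, fell from 138 ± 7.19 to 45.9 ± 1.08 CPM, the chaperone partner Sdf2l1 from 30.4 ± 1.86 to 11.5 ± 0.462, and the chaperone Hsp90b1 from 1501 ± 22.8 to 611 ± 15.2 (10.3% of exon bases under a gene on the opposite strand). Of 43 heat shock proteins and chaperones, 8 fell and 5 rose (4 and 7 with total counts). These were 18.6% and 11.6%, near the 16.2% and 13.0% of all genes tested. Hsph1 fell from 95.7 ± 7.01 to 28.6 ± 1.13 CPM, the same level as at day 1 (28.6 ± 1.87), and Hspa12a from 11 ± 0.915 to 3.21 ± 0.394. Hspa1b rose from 9.01 ± 0.619 to 15.6 ± 0.844 CPM, though a near-identical copy makes its count uncertain, and the cytosolic chaperonin subunit Cct3 rose from 109 ± 3.64 to 187 ± 6.58.

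Lysosomal enzymes fell in 15 of 57 cases and rose in 1 (11 and 1 with total counts). Tpp1, a peptidase, fell from 303 ± 3.14 to 101 ± 3.34 CPM, Idua, which cuts glycosaminoglycans, from 29.7 ± 1.80 to 9.89 ± 0.253, and Hexa by 1.51 (12.8% of exon bases shared), while cathepsin K (Ctsk) was the 1 that rose, from 43.5 ± 2.02 to 80.3 ± 4.19. Of 51 splicing proteins and kinases, 8 rose and 3 fell (18 and 2 with total counts), or 15.7% and 5.88%, against 13.0% and 16.2% of all genes tested. Hnrnph3 fell from 30.3 ± 1.81 to 6.96 ± 0.536 CPM and Hnrnpc from 260 ± 2.78 to 116 ± 1.79, and Srsf2 rose by 1.07 (25.3% of exon bases shared). In iron and heme handling, 8 of 33 fell and 3 rose, against 4 and 7 with total counts, and the median was 0.12 (0.32 with total counts), with Cpox falling from 44.5 ± 1.01 to 17.1 ± 0.846 CPM and Alas1, the first step of heme synthesis, rising from 108 ± 3.84 to 166 ± 5.23. In phospholipid synthesis and remodelling, 5 of 47 rose and 3 fell (8 and 3 with total counts), or 10.6% and 6.38%, both below the shares of all genes. Pemt, which makes phosphatidylcholine, rose from 0.902 ± 0.238 to 2.53 ± 0.469 CPM, and the lysosomal phospholipase Pla2g15 fell from 99.5 ± 3.18 to 44.9 ± 1.51. Among 23 clock genes, 7 fell and 1 rose, against 3 and 4 with total counts, with Bhlhe40 falling from 236 ± 17.6 to 108 ± 5.48 CPM and Dbp by 1.14 (18% of exon bases shared).

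**Figure D5:**
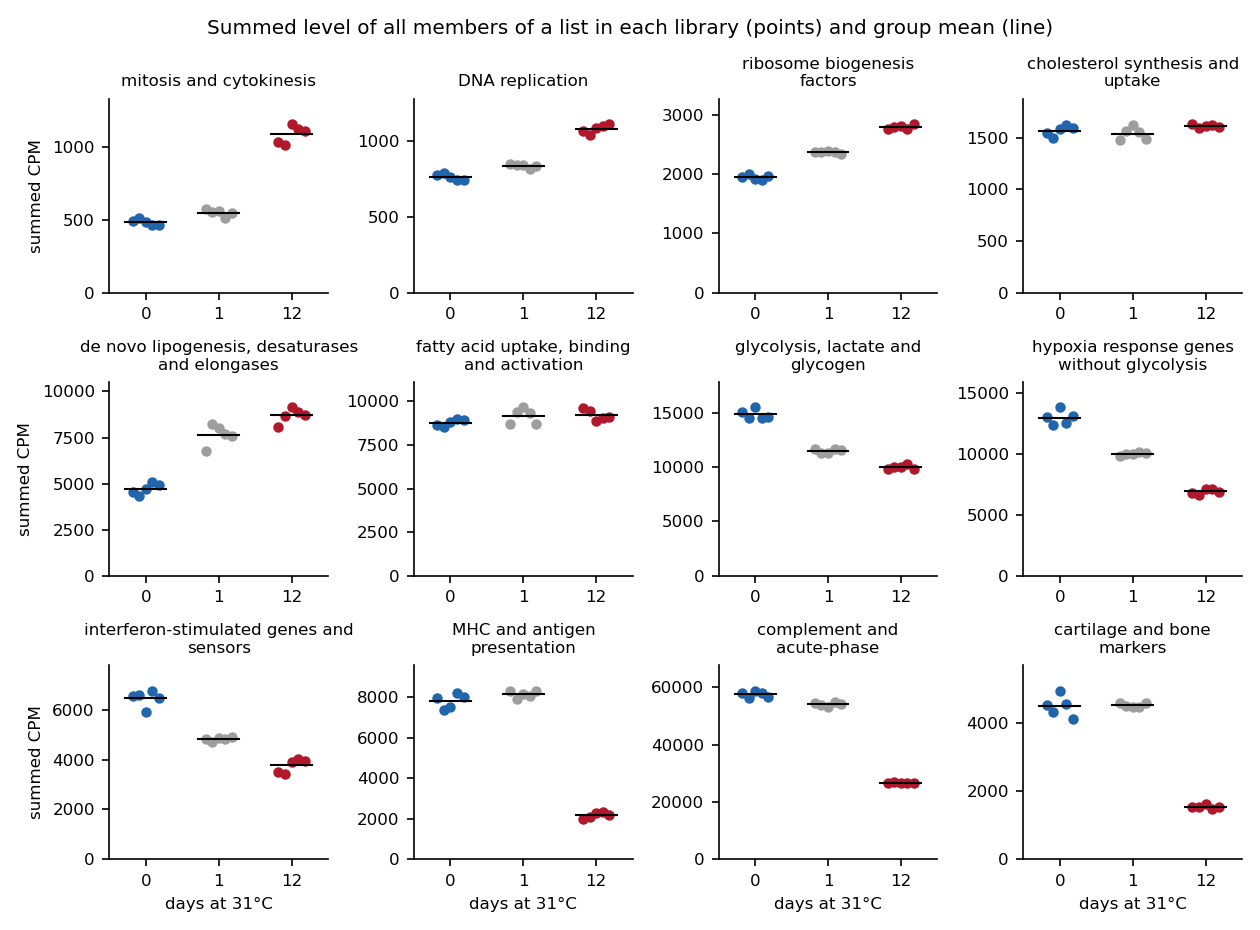
The summed level in CPM of all members of 12 gene lists is shown in each library (points) at 0 (blue), 1 (grey) and 12 (red) days at 31°C, with the group mean as a line and axes that start at 0. The sums for mitosis and antigen presentation at day 1 lay near day 0, and those for glycolysis, hypoxia and interferon genes lay between day 0 and day 12.

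Markers of other cell types moved with the group in part. The 20 cartilage and bone markers summed to between 4139 and 4965 CPM at day 0 and between 1486 and 1630 at day 12, with 9 of 19 lower and 3 higher. Cartilage oligomeric matrix protein (Comp) made up most of that sum and fell from between 3405 and 4077 CPM to between 877 and 962, and the cartilage genes Lect1 and Acan fell from 141 ± 16.5 to 49.2 ± 4.76 and from 56.3 ± 8.75 to 28.8 ± 2.39, while Col2a1 was not called (0.29). Of 7 macrophage and leukocyte markers tested, 3 rose and 0 fell (1 fell without day 0 replicate 4). They summed to between 27.0 and 34.2 CPM at day 0 and between 30.7 and 34.9 at day 12, with Csf1r at 0.199 and 0.562 CPM. Of 8 endothelial markers 3 rose and 3 fell (sums of 17.4 to 19.4 and 13.6 to 16.5 CPM), of 11 glial markers 3 rose and 3 fell (84.6 to 92.1 and 82.2 to 91.5), of 8 muscle markers 1 rose and 4 fell (5.74 to 6.78 and 2.82 to 3.78), and of 10 epithelial markers 3 rose and 2 fell (111 to 120 and 132 to 140). Of 10 mesothelial markers 4 rose and 2 fell (130 to 169 and 198 to 231 CPM). The share of these cell types in the other differences was not tested.

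The 10 largest increases by ratio, taken over called genes that averaged 1 CPM or more and whose groups did not overlap, had day 0 means of 0.0670 to 26.8 CPM. Msln, the cell surface protein mesothelin, stood at 0.968, 0.528, 0.275, 0.694 and 0.677 CPM at day 0, at 0.725 to 1.12 CPM at day 1 and at 25.2, 22, 29.6, 36.6 and 33.0 CPM at day 12. The lowest cool library was far above the highest control and the highest day 1 library, and the rise was 45.6-fold (log2 fold change 5.51 ± 0.17 SE, adjusted p 7.54e-19). The mesothelial markers Upk3b, Upk1b and Wt1 had the few counts given above, Krt19 was at 1.02 and 1.07 CPM, and Lrrn4 at 0.459 and 0.339. The next genes were Ikzf1, a lymphoid transcription factor (0.0670 ± 0.0726 to 2.2 ± 0.326 CPM), AW551984 (0.195 ± 0.0778 to 4.13 ± 0.747), the keratinocyte envelope protein Sprr1a (0.614 ± 0.111 to 8.59 ± 1.39), Aif1l (1.26 ± 0.199 to 15.5 ± 1.72) and the protease-activated receptor F2rl1 (0.333 ± 0.157 to 3.78 ± 0.326). Then came Gpr84, a receptor for medium-chain fatty acids (0.273 ± 0.121 to 2.95 ± 0.245 CPM, 39.5% of exon bases under a gene on the opposite strand), the protease Adamts16 (0.633 ± 0.222 to 6.08 ± 1.22) and Vstm2a, a secreted factor of preadipocytes (0.466 ± 0.111 to 4.54 ± 0.354), with Mest as the last of the 10.

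Within the same limits, the 10 largest decreases were Adrb3, Slc7a10, H2-Q6, Pnpla3, Gpr35, Oas2, Ache, Col20a1, Slco2b1 and H2-Q8. Gpr35, a receptor that couples to inhibitory G proteins, fell from 18.6 ± 3.24 to 0.665 ± 0.285 CPM and was at 1.75 ± 0.238 CPM by day 1. Ache, the acetylcholinesterase, fell from 2.67 ± 0.430 to 0.137 ± 0.0483 CPM and the organic anion carrier Slco2b1 from 2.23 ± 0.478 to 0.119 ± 0.103. All 10 were also called lower at day 12 than at day 1.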

How the data were processed

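RNA of cultured mouse adipocytes was sequenced in 15 libraries, 5 at each of 0, 1 and 12 days at 31°C. The authors deposited raw read counts per gene, and the submitters' processing notes name FastQC, TopHat2 2.0.13, Bowtie2 2.2.1, HTSeq, DESeq2 and the mouse build mm10. Whether the counting used strand is not given in the sources used here, so reads of overlapping genes may be shared; overlaps over 10% of exon bases (GENCODE M21, GRCm38, matched by symbol for 18480 of 18804 genes) are given beside a gene. The authors also deposited regularised log2 values and tables of their own comparisons with fold changes and p-values, none of which were used.

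Counts were filtered with filterByExpr (minimum count 10), scaled by TMM and fitted over all 15 libraries with edgeR 4.0.16 (R 4.3.3), with the contrast of day 12 and day 0 tested by the quasi-likelihood test with Benjamini-Hochberg adjustment over 14293 genes. Genes were called at an adjusted p below 0.05 together with a change of more than 1.5-fold. Standard errors were derived from the fold change and the F statistic. CPM are counts divided by the TMM-scaled library size, and 3 counts, which a count of 0 allows, came to 0.0225 to 0.0464 CPM, for counting error only. Alternatives used DESeq2 1.42.0, limma 3.58.1, other scalings, filters, call rules and sets of libraries. On simulated counts of 14200 genes for this comparison, 39 of 50 genes changed 1.6-fold, 48 of 50 changed 2-fold, 48 of 49 changed 4-fold and 49 of 49 changed 8-fold were recovered, with 1 false call. All simulated libraries shared a mean profile, and few genes were changed, as many up as down. The simulation therefore could not test how scaling deals with the shift in abundant genes between the real groups. Libraries of a group differed by more than sampling noise (chi-square per gene 5.69 to 24.54), so none was a copy of another.

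The 54 gene lists and the genes to be named were chosen with earlier results of these data known, and 1967 of 1999 list members were matched. Named genes were the 10 largest increases and decreases (mean of 1 CPM or more, groups not overlapping), the 10 largest gains and losses in CPM, up to 3 called members per list and direction, and fixed adipocyte genes. Of the 287 genes this rule gives, 239 are named. Of the others, some are not reported here and some were left out after their values were seen, among them genes near the fold limit, so the genes named are more stable than the rule's full set. Promoters are RefSeq sequences on GRCm38.p6, taken as the 250 bases before the start, for 11235 of the genes tested. A sterol regulatory element and the CARE core (TGATGNAA) were searched too. They were in 0.0534% and 2.5% of all promoters, the former in 0 of 10 risen cholesterol genes and the latter in 0 of 6 risen serine genes.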

Additional observations from a re-analysis of the deposited data

Results flagged for a closer look

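Of 488 groups of 5 library values examined for the genes and summary values named above, 21 held a library whose gap to its nearest neighbour, divided by the range of the group, passed Dixon's critical value of 0.71. Chance alone gives such a value in about 1 in 20 groups, which here is 24.4 groups. Day 0 replicate 2 gave the lowest value of Igf1 (205 CPM, next 226), Niacr1 (6.59 CPM, next 7.64) and Sprr1a (0.420 CPM, next 0.637). Day 0 replicate 3 gave the lowest value of Fabp4 (713 CPM, next 835), Il1rl1 (355 CPM, next 405) and Hspa1b (7.94 CPM, next 9.06). Day 0 replicate 2 gave the highest value of Lep (2.64 CPM, next 2.05). Day 0 replicate 3 gave the highest value of Pdk1 (150 CPM, next 140) and Slc1a5 (360 CPM, next 334).

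Day 12 replicate 1 gave the lowest value of Psmb9 (7.07 CPM, next 8.12). Day 12 replicate 2 gave the lowest value of Lhx8 (3.44 CPM, next 3.79). Day 12 replicate 4 gave the lowest value of Slc7a11 (22.4 CPM, next 24.2). Day 12 replicate 1 gave the highest value of Lpin1 (69.3 CPM, next 63.5) and Abca1 (364 CPM, next 330). Day 12 replicate 2 gave the highest value of Lipe (266 CPM, next 244). Day 12 replicate 3 gave the highest value of Adcy7 (12.9 CPM, next 10.7). Day 12 replicate 4 gave the highest value of Adamts7 (29.1 CPM, next 24.9), Pemt (3.35 CPM, next 2.45) and Gpr84 (3.36 CPM, next 2.94). Day 12 replicate 5 gave the highest value of Acly (208 CPM, next 204) and Hsph1 (30.6 CPM, next 28.5). Each of the 21 was 1 library in a group, and the calls of these genes did not change when that library was left out.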

How the results depend on the processing

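The counts of called genes moved by over 1.5 times under 4 alternatives, a filter on low values, 2 call rules and scaling to total counts. Against 1852 higher and 2320 lower genes, there were 2982 higher with total counts, 637 and 1051 with a filter on a mean of 10 CPM, 5608 and 5342 at an adjusted p alone, and 924 and 1255 at a fold change over 2. Leaving out single libraries gave 1832 to 1866 higher and 2304 to 2365 lower. With the replicate block there were 1851 and 2326, and 4142 of the 4172 genes were called in both fits. The deviations of same-numbered day 0 and day 12 libraries from their group means correlated over genes at -0.023 to 0.025. The numbers were therefore not taken to pair the libraries, and the block changed no call of a named gene. The other alternatives stayed within 1.5 times. Of 242 gene values, 221 kept direction and call under every alternative that tested them, other than the call rules. The filter on a mean of 10 CPM tested only 166 of them. With total counts 13 calls were lost, 6 were gained, and Fn1 (0.06) and Cebpa (0.12) changed sign, and with scaling to reference genes 3 were lost and 1 was gained.

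Of the named genes, Pparg alone lost its call without a single library. Among all 273 called genes that the naming rule gives, 7 did, 6 of them not named here, and among all 4172 called genes 446 did. Of 1080 list counts without 1 library, 13 moved by over 1.5 times. Calls near the 1.5-fold limit depend on the settings, and genes under 1 CPM rest on few counts.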
